A study of Mus musculus with 6 samples.

Results

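The genes described here encode the complement and coagulation proteins of blood plasma, as they were expressed in the liver of 6 mice. The 45 members were taken from the 28601 genes of the deposited expression table by gene symbol, and each symbol was found. Of these, 3 encode the chains of C1q, which macrophages make, and 42 encode the other proteins, with 22 in complement and 20 in coagulation and fibrinolysis. Most of the 42 are made mainly by hepatocytes, but Cfd is a product of fat cells and Cfp of leukocytes. All 45 passed the filter on low counts, which left 18648 genes for testing. The study compared 3 wild-type (WT) mice with 3 mice carrying PRDX1 Cys52Ser, in which serine replaces the cysteine through which peroxiredoxin 1 reduces hydrogen peroxide. All were males given CDAHFD, a high-fat diet that lacks choline and supplies defined amino acids, from 8 weeks of age for 8 weeks, per the titles and the series design. The diet is used to produce fatty liver with inflammation and fibrosis, and both groups received it, so neither is a healthy liver. The treatment field of the labels gives other times, 8, 9 and 10 weeks for WT replicates 1, 2 and 3 and 11, 12 and 13 weeks for the same replicates of Cys52Ser. If those times hold, genotype and time on diet cannot be told apart. Strain, and how the substitution was made, are not given in the sources used here.

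Complement is a cascade of serum proteases. C1q, which binds antibody and debris, and the mannose-binding lectins, which bind sugars, activate proteases that lead to cleavage of C3, and factor B amplifies that step on surfaces. The terminal proteins C5 to C9 then form a pore in the target membrane. Coagulation is another protease cascade, which ends with thrombin cutting fibrinogen to fibrin, and plasmin later dissolves the clot. Hepatocytes secrete nearly all of these proteins, and several of the genes are induced in the acute phase response to inflammation.

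Promoters of 7 members are shown to set C1q chains (C1qb and C1qc) beside genes that were higher in Cys52Ser (Masp2 and F5) and the fibrinogen chains (Fga, Fgb and Fgg), whose RNAs feed 1 protein. The sequences are RefSeq's for GRCm38.p6, which held 37 such windows for 35 of the 45 members. Each runs 5′ to 3′ on the gene's strand, from 250 bases before the transcription start to 50 bases after it, and capitals mark motif matches on either strand. The windows are chr4:136886151-136886450 on the minus strand for C1qb, chr4:136892865-136893164 (minus) for C1qc, chr4:148602294-148602593 (plus) for Masp2, chr1:164151585-164151884 (plus) for F5, chr3:83025903-83026202 (plus) for Fga, chr3:83049814-83050113 (minus) for Fgb and chr3:83007474-83007773 (plus) for Fgg.
C1qb: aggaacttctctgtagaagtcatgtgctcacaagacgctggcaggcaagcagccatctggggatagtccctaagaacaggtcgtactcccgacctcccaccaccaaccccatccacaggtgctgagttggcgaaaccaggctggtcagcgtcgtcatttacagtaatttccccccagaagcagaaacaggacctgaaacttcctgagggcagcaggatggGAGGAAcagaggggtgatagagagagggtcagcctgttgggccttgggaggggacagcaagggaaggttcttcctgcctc
C1qc: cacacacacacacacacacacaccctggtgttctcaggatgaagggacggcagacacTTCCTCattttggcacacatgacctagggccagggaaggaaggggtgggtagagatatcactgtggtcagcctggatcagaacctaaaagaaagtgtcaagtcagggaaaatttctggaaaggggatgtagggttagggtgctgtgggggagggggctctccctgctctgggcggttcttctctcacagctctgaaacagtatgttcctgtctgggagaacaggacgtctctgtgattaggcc
Masp2: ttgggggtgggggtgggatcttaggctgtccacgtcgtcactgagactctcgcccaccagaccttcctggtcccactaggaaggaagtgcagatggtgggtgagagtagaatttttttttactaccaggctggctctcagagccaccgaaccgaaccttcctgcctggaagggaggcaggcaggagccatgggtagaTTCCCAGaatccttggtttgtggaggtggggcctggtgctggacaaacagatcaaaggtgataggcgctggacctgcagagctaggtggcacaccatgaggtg
F5: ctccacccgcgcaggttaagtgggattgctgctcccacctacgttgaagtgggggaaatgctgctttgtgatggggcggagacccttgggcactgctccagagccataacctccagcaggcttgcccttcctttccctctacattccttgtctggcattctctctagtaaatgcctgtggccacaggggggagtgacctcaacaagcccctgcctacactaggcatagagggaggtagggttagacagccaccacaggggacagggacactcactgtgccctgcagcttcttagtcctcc
Fga: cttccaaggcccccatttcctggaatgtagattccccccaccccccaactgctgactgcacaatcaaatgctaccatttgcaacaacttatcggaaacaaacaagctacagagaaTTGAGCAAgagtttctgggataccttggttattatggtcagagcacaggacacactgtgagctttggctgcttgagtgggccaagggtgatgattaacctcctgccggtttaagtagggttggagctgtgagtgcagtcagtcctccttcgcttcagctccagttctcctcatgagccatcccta
Fgb: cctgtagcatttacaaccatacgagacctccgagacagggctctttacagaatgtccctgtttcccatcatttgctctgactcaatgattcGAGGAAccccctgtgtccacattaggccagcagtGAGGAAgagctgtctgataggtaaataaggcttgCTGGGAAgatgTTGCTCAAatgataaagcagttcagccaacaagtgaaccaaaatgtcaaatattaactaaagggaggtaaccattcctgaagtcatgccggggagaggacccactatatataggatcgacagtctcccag
Fgg: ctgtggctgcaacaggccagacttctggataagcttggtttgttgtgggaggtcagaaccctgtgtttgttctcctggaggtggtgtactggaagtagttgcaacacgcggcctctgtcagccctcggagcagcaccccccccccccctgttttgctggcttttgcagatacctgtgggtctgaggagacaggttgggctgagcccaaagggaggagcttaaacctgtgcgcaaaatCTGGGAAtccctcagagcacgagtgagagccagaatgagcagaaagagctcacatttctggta

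The motifs searched were GAGGAA, the core bound by PU.1, a transcription factor of macrophages, and CTGGGAA, the interleukin-6 response element of acute phase genes. TTGCNNAA for C/EBP factors and CAAAGTCCA for HNF4 were searched too. No matches overlapped in the printed windows. Both C1q windows held GAGGAA, and so did that of Fgb. Fga and Fgb held TTGCNNAA, and Fgb, Fgg and Masp2 held CTGGGAA. The window of F5 held none of these motifs. Of the 37 member windows, 11 held TTGCNNAA against 10.8% of all 32851 windows, and 7 held CTGGGAA against 11.1%. GAGGAA was in 6 against 28.3%, and CAAAGTCCA in 0 against 0.475%. A match describes the letters and was not tested as a binding site.

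Libraries held 53318196 to 73900923 counts. In FPKM, Prdx1 was lower in every Cys52Ser mouse than in any WT mouse, as were 37.7% of all tested genes. Prdx1 stood at 305, 304 and 295 FPKM in the WT mice and 218, 184 and 197 FPKM in the Cys52Ser mice. With TMM scaling its groups nearly met, at 863.5 CPM in the lowest WT and 858.6 CPM in the highest Cys52Ser mouse, and it was not called (log2 fold change -0.24, standard error 0.15, edgeR adjusted p = 0.421). A substitution of 1 residue cannot be seen in gene-level counts. Levels between mice are CPM (counts relative to library size), scaled by trimmed mean of M-values (TMM) factors, which set the bulk of genes level. Levels between genes are FPKM, which allows for transcript length. The TMM factors were 1.05 to 1.21 in WT and 0.815 to 0.963 in Cys52Ser, and albumin, the main hepatocyte transcript, took 3.6% to 5.55% of all counts in WT and 8.08% to 8.49% in Cys52Ser. With library totals alone the median over all tested genes moved on the log2 scale from -0.0032 to -0.35, and the unscaled value of a member is given where it matters. In liver RNA, fewer cells of a type and less RNA per cell cannot be told apart.

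The 42 genes other than C1q spanned a wide range of levels. C3, the central component of complement, was the highest, at 915 ± 89.8 FPKM in WT and 909.9 ± 108 FPKM in Cys52Ser (SD, n = 3 each). Next in WT came fibrinogen gamma (Fgg) at 724 ± 62.1 FPKM, vitronectin (Vtn) at 626 ± 61.9 FPKM and fibrinogen alpha (Fga) at 601 ± 31.2 FPKM (SD, n = 3). Of the 42 genes, 21 had a mean WT level of at least 100 FPKM, 20 lay between 10 and 100 FPKM, and 1, Cfd, lay under 10 FPKM. The lowest apart from Cfd was Masp1, a protease of the lectin pathway, at 15.2 ± 3.28 FPKM in WT (SD, n = 3). The C1q chains lay inside this range.

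In Cys52Ser against WT, all 42 genes other than C1q had a positive log2 fold change, as did 49.7% of all tested genes, and all 3 C1q chains had a negative one. By the test across all genes only Masp2, Cfb and F5 rose, and no member fell. That is 7.14% of the 42, where 2.52% of all tested genes were called higher and 2.46% lower (edgeR quasi-likelihood test, Benjamini-Hochberg adjusted p below 0.05). The median log2 fold change of the 42 was 0.58, with 0.59 for complement and 0.58 for coagulation and fibrinolysis. In CPM the groups did not overlap for 25 of the 42, all higher in Cys52Ser, against 14.4% of all tested genes. In FPKM 15 were higher without overlap, against 4.71%, and Pros1 was lower, as were 37.7% of all genes. DESeq2 called 25 of the 42 higher, where it called 7.42% of all genes higher. With library totals alone the median was 0.22, 36 of the 42 log2 fold changes stayed positive, and edgeR again called 3 higher, against 1.57%. Limma on log2(FPKM + 0.5) also called 3 higher, of 41 tested, against 2.58%.

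**Figure D1:**
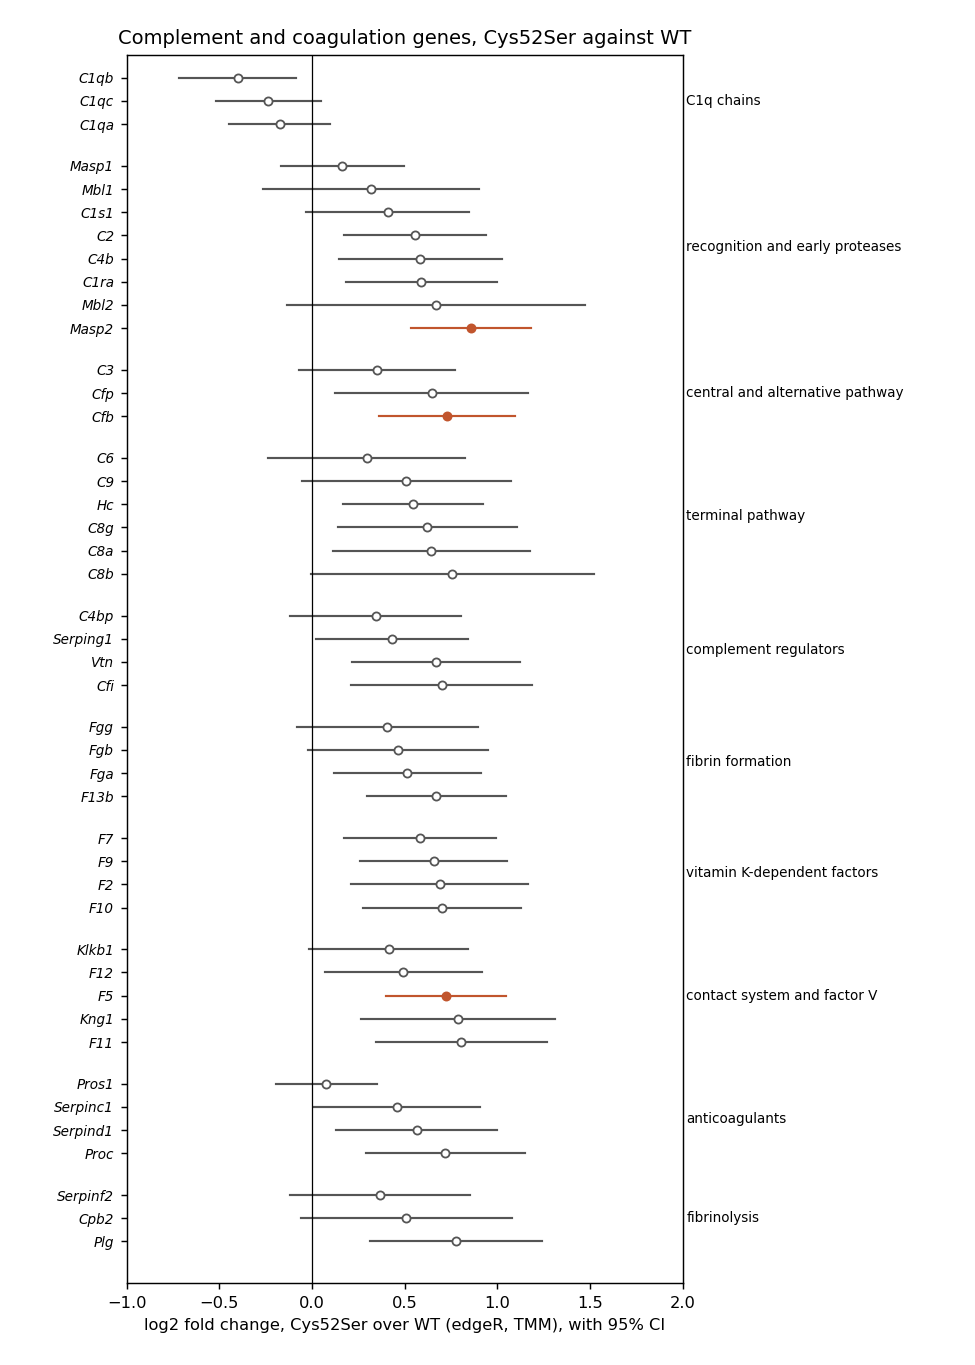
Each point is the edgeR log2 fold change of 1 gene in Cys52Ser over WT with TMM scaling, the line is its 95% confidence interval, and genes are grouped by role. Filled points passed the adjusted test (Masp2, Cfb and F5). The C1q chains lie left of 0 and the other genes right of it. Cfd, with an interval from 0.18 to 4.91, is left off.

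Among the recognition proteins and early proteases, Masp2 rose. It encodes a lectin pathway protease that cleaves C4 and C2 (ENSMUSG00000028979, chromosome 4, 148602554 to 148615499, plus strand; GRCm38). Its level was 78.5, 89.4 and 99.6 CPM in WT replicates 1, 2 and 3 and 173, 141 and 171 CPM in those of Cys52Ser. Every Cys52Ser mouse lay above every WT mouse, and the rise was 1.81-fold (log2 fold change 0.86, standard error 0.14, edgeR adjusted p = 0.0243). On library totals alone the log2 fold change was 0.51 (edgeR adjusted p = 0.02). The call was lost without WT replicate 1, WT replicate 2, Cys52Ser replicate 1 or Cys52Ser replicate 3 (edgeR adjusted p from 0.0506 to 0.0934). The gene Tardbp overlaps exons of Masp2 on the opposite strand. No source used here says whether reads were counted by strand, so the value of Masp2 is uncertain. The other 7 genes of the group had log2 fold changes from 0.16 (Masp1) to 0.67 (Mbl2) and did not pass. Mbl2, a mannose-binding lectin, stood at 50.1, 92.5 and 139.6 CPM in the WT mice and 159.6, 130.4 and 159.5 CPM in the Cys52Ser mice. WT replicate 1 was far below the rest, and the groups overlapped. C4b has the near-identical copy C4a, C1ra has C1rb and C1s1 has C1s2, and their values are uncertain.

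**Figure D2:**
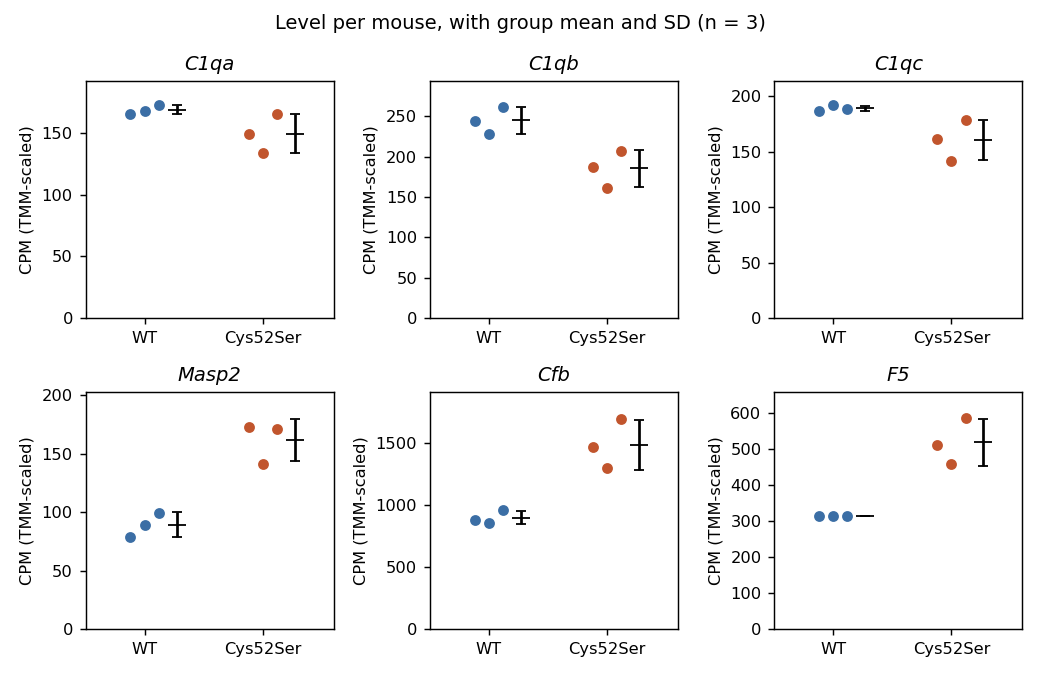
TMM-scaled CPM of the 3 C1q chains and of the 3 genes that rose, 1 point per mouse, with the group mean and SD (n = 3) beside the points. Masp2, Cfb and F5 are well separated between the groups, whereas for C1qa the highest Cys52Ser mouse (165.16 CPM) lies just under the lowest WT mouse (165.24 CPM).

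In the central and alternative pathway, Cfb rose. It encodes factor B, the protease subunit of the alternative pathway convertase (ENSMUSG00000090231, chromosome 17, 34856374 to 34862518, minus strand). WT mice had 874, 856 and 955 CPM and Cys52Ser mice 1463, 1293 and 1692 CPM, with no overlap. The rise was 1.66-fold (log2 fold change 0.73, standard error 0.16, edgeR adjusted p = 0.0468), and the log2 fold change was 0.37 with library totals alone (edgeR adjusted p = 0.0426). The call was lost in each of the 6 fits that left out 1 mouse (edgeR adjusted p from 0.057 to 0.148). The gene model Gm20547 overlaps exons of Cfb and of C2 on the same strand, so both values are uncertain. C3 did not pass, at 4658, 4902 and 4552 CPM in WT against 5314, 5532 and 7150.2 CPM in Cys52Ser (log2 fold change 0.35, edgeR adjusted p = 0.304). Its groups did not overlap in CPM, but its direction turned with library totals alone, to -0.01. Cfp, properdin, which leukocytes make and which stabilises the convertase, had a log2 fold change of 0.65 (edgeR adjusted p = 0.142).

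Cfd encodes adipsin, the factor D that cleaves factor B and that fat cells make. It was near the limit of counting, with 26 counts in the 3 WT libraries and 126 in the 3 Cys52Ser libraries. Its levels were 0.152, 0.0658 and 0.173 CPM in WT and 0.107, 1.73 and 0.479 CPM in Cys52Ser. Most counts were in Cys52Ser replicate 2, the groups overlapped, and the gene did not pass (edgeR adjusted p = 0.191). The fat cell genes Plin1 and Adipoq were also highest in Cys52Ser replicate 2, at 0.681 and 0.221 CPM, and Lep was at 0 in that library. Of 5 adipocyte markers 2 were tested, and neither was called. Both had negative log2 fold changes, -0.74 and -0.24. The list summed to 68.7 to 133 CPM in WT and 60.3 to 70.1 CPM in Cys52Ser. In Cys52Ser replicate 2 these markers summed to 60.5 CPM, below every WT mouse. Plin1 and Adipoq, which were highest there, made up little of that sum, so it mostly reflects other genes of the list. Their part in the value of Cfd was not tested.

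No terminal pathway gene passed. The smallest p among the 6 belonged to Hc, which encodes C5, the first protein of the pore-forming steps. It measured 406, 445 and 499 CPM in WT and 733, 555 and 681 CPM in Cys52Ser (log2 fold change 0.54, edgeR adjusted p = 0.0987). The groups did not overlap for Hc. The genes of the C8 subunits had log2 fold changes of 0.64 (C8a), 0.76 (C8b) and 0.62 (C8g), with edgeR adjusted p from 0.131 to 0.227. C6 had the smallest of the group, 0.30, which turned to -0.06 with library totals alone.

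Among the 4 complement regulators none passed. Vitronectin (Vtn), which blocks insertion of the terminal complex, had the smallest p, at 1052, 1367 and 1424 CPM in WT and 2088, 1688 and 2330.2 CPM in Cys52Ser, without overlap (log2 fold change 0.67, edgeR adjusted p = 0.0952). Cfi, the protease that degrades C3b and C4b, stood at 0.70 (edgeR adjusted p = 0.101). Serping1, the C1 inhibitor, and C4bp, a cofactor of Cfi, had log2 fold changes of 0.43 and 0.34, and their groups overlapped.

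The fibrinogen chains did not pass either. Fga stood at 1779, 1721 and 1945 CPM in WT and 2943, 2175 and 2659.6 CPM in Cys52Ser, a log2 fold change of 0.51 (edgeR adjusted p = 0.13). Fgb and Fgg had log2 fold changes of 0.46 and 0.41, with WT replicate 3 above Cys52Ser replicate 2 in both. F13b, the carrier subunit of the enzyme that crosslinks fibrin, had the smallest p of the fibrin genes. Its values were 119, 121 and 162 CPM in WT and 221, 189.6 and 229.99 CPM in Cys52Ser, apart from each other (log2 fold change 0.67, edgeR adjusted p = 0.0586).

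The 4 vitamin K-dependent procoagulant factors had log2 fold changes of 0.69 for prothrombin (F2), 0.58 for F7, 0.66 for F9 and 0.70 for F10. In each the Cys52Ser mice all lay above the WT mice in CPM, as for 14.4% of all tested genes, but none passed (edgeR adjusted p from 0.072 to 0.102). In FPKM 3 of the 4 were higher without overlap, against 4.71% of all tested genes, and the groups of F7 overlapped. F9, the factor missing in haemophilia B, had 120.5, 122 and 167 CPM in the WT mice and 230.5, 186 and 229 CPM in the Cys52Ser mice. These proteins need carboxylation after translation, and of the 3 genes of the vitamin K cycle none was called with TMM scaling. The smallest p there was that of the carboxylase Ggcx (log2 fold change 0.27, edgeR adjusted p = 0.265). Vkorc1l1 was called lower with library totals alone, at -0.37 (edgeR adjusted p = 0.048).

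F5 was the only clotting factor among the members that rose. Factor V is the cofactor that speeds the conversion of prothrombin to thrombin (ENSMUSG00000026579, chromosome 1, 164151838 to 164220277, plus strand). The gene model Gm16548 overlaps exons of F5 on the opposite strand, so the value of F5 is uncertain. The WT mice were close together at 313, 314 and 313 CPM, and the Cys52Ser mice measured 512, 456 and 584 CPM. The groups were far apart, and the rise was 1.65-fold (log2 fold change 0.72, standard error 0.14, edgeR adjusted p = 0.0362). With library totals alone the log2 fold change was 0.36 (edgeR adjusted p = 0.048). The call was lost in the fits that left out 1 mouse other than Cys52Ser replicate 2 (edgeR adjusted p from 0.0543 to 0.12), and with it left out p was 0.0486. Of the contact system genes, F11 and Kng1 had larger log2 fold changes, 0.81 and 0.79, yet did not pass (edgeR adjusted p = 0.0641 and 0.0896). F12 stood at 0.49 and Klkb1, plasma prekallikrein, at 0.41. The gene model Gm45753 overlaps exons of Klkb1 on the same strand, so the value of Klkb1 is uncertain. Kng1, which encodes kininogen, has the close paralog Kng2, and its value is uncertain.

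Of the anticoagulants, Proc, the zymogen of activated protein C, had 297, 271 and 376 CPM in the WT mice and 527, 435 and 594 CPM in the Cys52Ser mice, without overlap (log2 fold change 0.72, edgeR adjusted p = 0.0697). Its cofactor protein S (Pros1) had the smallest log2 fold change of the members other than C1q. Pros1 measured 83.6, 80.7 and 95.97 CPM in WT and 97.2, 82.5 and 94.9 CPM in Cys52Ser. The groups overlapped, and the log2 fold change of Pros1 was 0.08 with a 95% confidence interval from -0.20 to 0.35. With library totals alone it was -0.27 (edgeR adjusted p = 0.0775). Antithrombin (Serpinc1) and heparin cofactor II (Serpind1) had log2 fold changes of 0.46 and 0.57. In fibrinolysis, plasminogen (Plg) had 925, 835 and 1217 CPM in WT and 1869.8, 1428 and 1806 CPM in Cys52Ser. These groups did not overlap, but the log2 fold change of 0.78 did not pass (edgeR adjusted p = 0.0713). The gene Slc22a3 overlaps exons of Plg on the opposite strand, so the value of Plg is uncertain. The antiplasmin gene Serpinf2 and Cpb2, whose product removes plasminogen binding sites from fibrin, stood at 0.37 and 0.51.

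In each group 1 mouse held the same place in most of these genes. Among the WT mice, replicate 3 was the highest in 37 of the 42 genes in CPM. Of the Cys52Ser mice, replicate 2 was the lowest in 40 of the 42 in CPM and in 38 in FPKM. In TMM-scaled CPM no WT mouse was the highest of the 6 for any of the 42, and no Cys52Ser mouse the lowest. This did not hold in FPKM, where a WT mouse was the highest for Pros1, Masp1, Mbl1 and C6, among others. The genes share each library and its scaling factor, so this order is 1 observation per mouse. As a share of all counts, the 42 genes took 2.69% to 2.89% in WT and 2.91% to 3.26% in Cys52Ser.

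**Figure D3:**
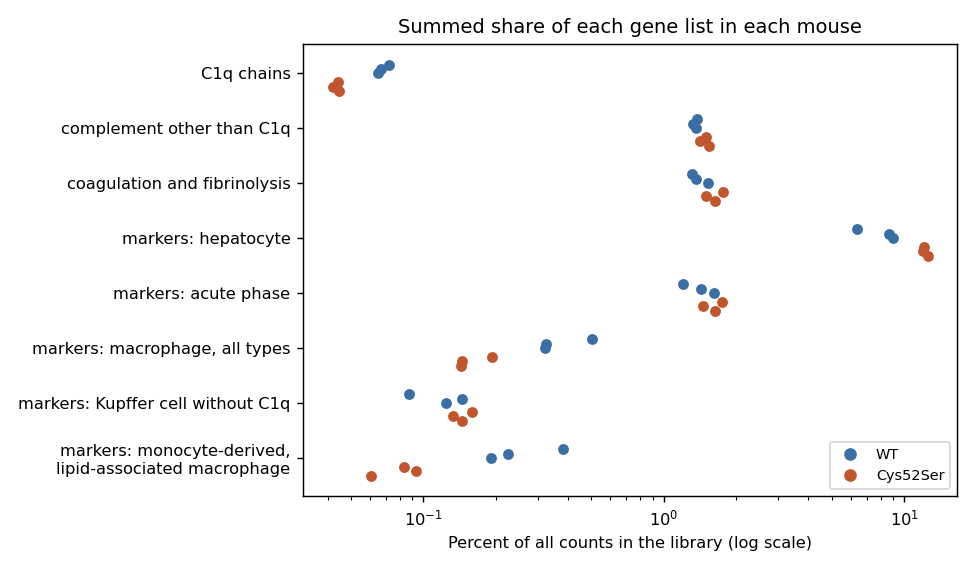
Percent of all counts in each mouse, on a log scale, for the C1q chains, the other complement genes, the coagulation and fibrinolysis genes and 5 marker lists, 1 point per mouse. The C1q chains took 0.0651% to 0.072% in WT and 0.0421% to 0.0448% in Cys52Ser, whereas the hepatocyte markers took 6.4% to 9.01% and 11.97% to 12.5%.

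Markers of hepatocytes moved with the 42 genes. All 15 hepatocyte markers tested had positive log2 fold changes, as did 49.7% of all tested genes. Their median was 0.64, and 2 rose, Cps1 of the urea cycle and the transcription factor gene Hnf4a, against 2.52% of all tested genes. The summed level of the hepatocyte markers was 52969 to 86208 CPM in WT and 124450 to 154120 CPM in Cys52Ser. Albumin alone held 29788 to 53149 CPM of it in WT and 85846 to 104320 CPM in Cys52Ser. Albumin was not called (edgeR adjusted p = 0.0573). Of the 12 genes listed for the acute phase only Saa4 rose, which encodes the constitutively expressed serum amyloid A rather than an inducible one. The inducible Saa1, Saa2 and Saa3 did not pass (edgeR adjusted p = 0.173, 0.237 and 0.0794). The list had a median of 0.61 and overlapping sums of 9999.9 to 15456 CPM in WT and 15116 to 20074 CPM in Cys52Ser. The part of either list in the values of the complement and coagulation genes was not tested.

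The C1q chains ran the other way. C1qa, C1qb and C1qc lie next to each other on the minus strand of chromosome 4, from 136880129 to 136898803, and their products assemble into 1 protein. Prdx1, the gene that carries the substitution, is on the same chromosome, 20.2 Mb from them. Masp2 (31.9 Mb from Prdx1), C8a and C8b (both 11.9 Mb) are on it too. Any part of this position in the values of these genes was not tested. C1qa stood at 165, 168 and 173 CPM in WT and 149, 134 and 165 CPM in Cys52Ser. For C1qb the values were 244, 228 and 262 CPM and 188, 161 and 207 CPM, and for C1qc 187, 192 and 189 CPM and 161, 142 and 178 CPM. In all 3 chains every Cys52Ser mouse was below every WT mouse, as for 15.2% of all tested genes. None passed with TMM scaling. C1qb came nearest, at a log2 fold change of -0.40 with a 95% confidence interval from -0.72 to -0.09 (edgeR adjusted p = 0.134). C1qc (-0.24) and C1qa (-0.17) had edgeR adjusted p of 0.308 and 0.443.

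Whether the chains are called depended on the scaling. With library totals alone all 3 fell, C1qb by 0.76, C1qc by 0.59 and C1qa by 0.53 on the log2 scale (edgeR adjusted p = 0.0135, 0.0166 and 0.0171), where 14.6% of all genes were called lower. Limma on log2(FPKM + 0.5) called all 3 lower as well, against 20.7% of all genes. DESeq2 called C1qb alone (adjusted p = 0.0385), against 6.77%. In FPKM, C1qb was 224 ± 15.6 in WT and 133 ± 6.51 in Cys52Ser, C1qa 162 ± 9.41 and 112 ± 3.55, and C1qc 97.8 ± 7.4 and 64.9 ± 2.51 (SD, n = 3 each).

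**Figure D4:**
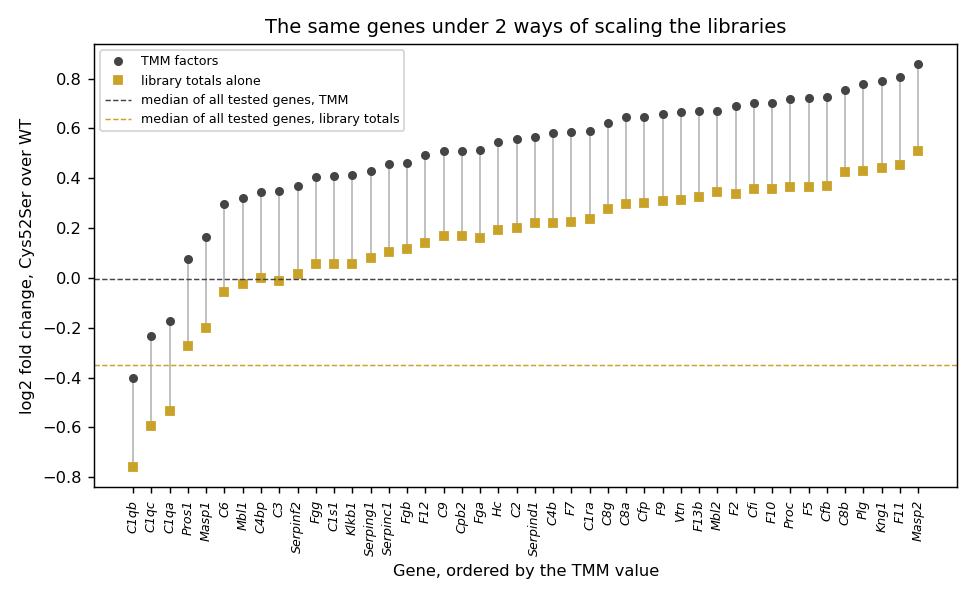
Log2 fold change of each gene with TMM factors (circles) and with library totals alone (squares), ordered by the former. Dashed lines are the medians of all tested genes, -0.0032 and -0.35. The C1q chains lie below the matching median under both scalings, and Pros1, Masp1, C6, Mbl1, C4bp and C3 are above 0 by the first and below it by the other. Cfd is left off.

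Other macrophage genes did not move as 1 block. Of 12 general macrophage markers 2 fell (Lyz2 and Tyrobp) and none rose with TMM scaling, with a median log2 fold change of -0.55 and a summed level of 2835 to 4187 CPM in WT and 1513 to 2195 CPM in Cys52Ser. From the list for lipid-associated macrophages and those derived from monocytes, 11 genes in all, Trem2, Gpnmb, Cd9, Itgax and Ms4a7 fell. That list had a median of -1.33 and summed to 1826 to 3158 CPM in WT and 747 to 969 CPM in Cys52Ser. Spp1 made up 1161, 618 and 558 CPM of the sum in WT and 141, 335 and 116 CPM in Cys52Ser. Spp1 was also counted as a cholangiocyte marker. Of 11 Kupffer cell markers other than C1q, Clec4f, Folr2 and Cd163 rose. That list had a median of 0.68 and sums of 724 to 1270 CPM in WT and 1383 to 1804 CPM in Cys52Ser. As a share of all counts its sums overlapped, at 0.0874% to 0.145% in WT and 0.133% to 0.16% in Cys52Ser. WT replicate 1 was the lowest on both scales. By library totals, 9 of the 12 general markers and 9 of the 11 of the lipid-associated list fell, and Clec4f, Folr2 and Cd163 again rose. Over all tested genes, 2.46% fell and 2.52% rose with TMM scaling, and 14.6% fell and 1.57% rose by library totals. No marker of these 3 lists was at 0 in any library. The C1q median was -0.24, and the part of each macrophage type in it was not tested.

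Ratios between genes within a library do not depend on scaling. The FPKM of C1qb relative to C1qa was 1.41, 1.299 and 1.45 in the WT mice and 1.204, 1.15 and 1.197 in the Cys52Ser mice, so that all Cys52Ser mice lay lower. C1qc relative to C1qa had a WT mean of 0.604 ± 0.0134 and a Cys52Ser mean of 0.579 ± 0.00651 (SD, n = 3 each), again without overlap. C1s1 relative to its partner protease C1ra was 1.73 ± 0.0231 and 1.52 ± 0.0805 (SD, n = 3 each), also without overlap. For each of these 3 ratios the exact permutation test, two-sided, gave p = 0.1, which is the smallest possible with 3 against 3 mice, and a Benjamini-Hochberg value of 0.267 over the 8 ratios computed. The fibrinogen ratios overlapped between groups, with Fgb to Fga at 0.844 ± 0.118 in WT and 0.818 ± 0.00949 in Cys52Ser and Fgg to Fga at 1.21 ± 0.134 and 1.12 ± 0.0599 (SD, exact permutation p = 0.7 and 0.4, n = 3 each). The gene model Gm16567 overlaps C1s1 on the opposite strand, and no source used here says whether reads were counted by strand.

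**Figure D5:**
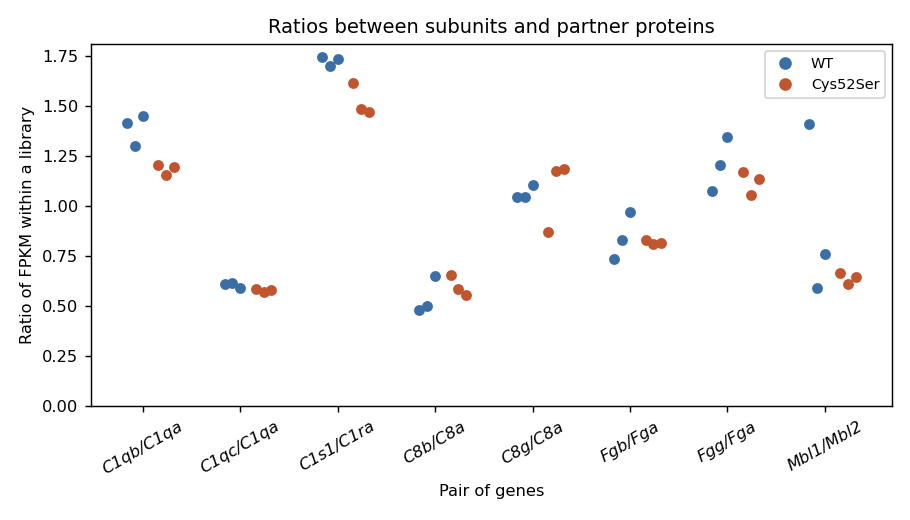
Ratio of the FPKM of 2 partner genes in each mouse, 1 point per mouse. C1qb to C1qa, C1qc to C1qa and C1s1 to C1ra are separated between the groups, while the C8, fibrinogen and mannose-binding lectin ratios overlap.

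Of 75 other genes of the same systems that were tested, 9 rose and 8 fell with TMM scaling, and 5 rose and 19 fell with library totals alone. Over all tested genes, 2.52% rose and 2.46% fell with TMM scaling, and 1.57% rose and 14.6% fell with library totals alone. Among 15 other complement components 4 rose with TMM scaling, namely Fcna, C4a, Cfhr3 and C1rb, and none fell. Only Fcna of these passed with library totals alone, where C7, Colec11 and Clu fell (edgeR adjusted p = 0.0478, 0.015 and 0.0206). Fcna, a ficolin of the lectin pathway, rose 3.35-fold, with means of 22.9 ± 9.64 CPM for WT and 76.7 ± 15.98 CPM for Cys52Ser (SD over 3 mice, edgeR adjusted p = 0.045). An antisense gene, Fcnaos, overlaps Fcna, whose value is uncertain. Of 20 other coagulation genes and inhibitors 3 rose, Hrg (histidine-rich glycoprotein) and the broad protease inhibitors Pzp and Mug1. None of the 20 fell with TMM scaling, and 2, Tfpi and Thbd, fell with library totals alone, where the 3 that rose passed too. Hrg rose 2.37-fold, with means of 370.4 ± 61.9 CPM for WT and 876 ± 105 CPM for Cys52Ser (SD over 3 mice, edgeR adjusted p = 0.0208). Mug1 belongs to a family of close copies and is uncertain.

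Of 8 other fibrinolysis genes 5 fell and none rose, with a median log2 fold change of -0.92, and 7 fell with library totals alone. Over all tested genes, 2.46% fell with TMM scaling and 14.6% with library totals alone. Plat, tissue plasminogen activator, fell 4.57-fold, with means of 23.1 ± 10.01 CPM for WT and 5.06 ± 1.11 CPM for Cys52Ser (SD over 3 mice, edgeR adjusted p = 0.0243). Plau, which encodes urokinase, fell by 0.84 on the log2 scale, and the protease inhibitor gene Serpine2 fell by 1.92. Anxa2 and S100a10, whose products form a plasminogen-binding complex at the cell surface, fell by 1.01 and fell by 0.68. Of 16 complement receptors and membrane regulators 3 fell and none rose, and 5 fell with library totals alone. The 3 that fell with TMM scaling were the anaphylatoxin receptor gene C3ar1, the integrin gene Itgax and Cd93. They fell by 0.98, 1.34 and 0.78 on the log2 scale. Markers of stellate cells, of which 5 of 9 fell (8 of 9 with library totals alone), summed to 1316 to 2188 CPM in WT and 809.8 to 889 CPM in Cys52Ser, and their part in the values of Plat and Serpine2 was not tested. Of 3 tested protease-activated and kinin receptors none passed, the smallest p being that of the thrombin receptor gene F2r (log2 fold change -0.53, edgeR adjusted p = 0.142). F2r passed with library totals alone, at -0.90 (edgeR adjusted p = 0.0298).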

How the data were processed

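Liver mRNA from 3 WT and 3 Cys52Ser mice was selected with oligo(dT) and made into dUTP-stranded libraries with unique molecular identifiers, read as pairs of 150 bp, per the labels' protocols. Tools named in the submitters' processing notes, with no roles, are HISAT2 2.0.4, StringTie 1.3.4d, cutadapt 1.9, UMI-tools, edgeR and DESeq2, and mm9 is the build they name. Positions in the table are those of GRCm38, however: 40 of the 45 members match GENCODE M21 exactly. For each gene the authors deposited FPKM and an estimated count for every library, per the file headers; all counts were whole, so none was rounded.

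Groups came from the titles. Counts were tested with edgeR 4.0.16 in R 4.3.3 (filterByExpr with a minimum count of 10, TMM, robust quasi-likelihood fit, genotype as the only term), with Benjamini-Hochberg adjustment over 18648 genes at 0.05. The standard error is the size of the log2 fold change divided by the square root of F. Alternatives were DESeq2 1.42.0, limma 3.58.1 on log2(FPKM + 0.5) and those of the closing section. The test was first run on simulated counts. P-values weigh the difference between the groups against the spread between these mice, which edgeR moderates across genes. Per-mouse values were planned for the C1q chains, for members with an adjusted p below 0.05 and for the smallest p in each role group. Those of C3, Mbl2, Fga, Pros1 and Cfd, the ratios and the promoter motifs were chosen after values were seen. Members and lists were chosen with earlier results of these data known. 1 gene of the pathway lists is counted but not reported here.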

Additional observations from a re-analysis of the deposited data

How the results depend on the processing

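The direction of the 42 genes other than C1q, taken as their median log2 fold change, was positive in every alternative run, and that of the C1q chains negative. The first median, 0.58, moved to 0.22 with library totals alone and to 0.22, 0.22, 0.22 and 0.23 with limma on FPKM at pseudocounts of 0.5, 0.1 and 1 and without the filter; the second, -0.24, moved to -0.595 with library totals alone and, in the same order of limma fits, to -0.59, -0.59, -0.58 and -0.59. The medians ranged from 0.45 to 0.69 for the 42 genes and from -0.32 to -0.15 for the C1q chains when 1 library was left out. The count of 3 members called other than C1q became 25 with DESeq2, 5 with the replicate block and 1 with limma without a filter. It was 0 without WT replicate 1, WT replicate 2, Cys52Ser replicate 1 or Cys52Ser replicate 3. Without Cys52Ser replicate 2 it was 3, and without WT replicate 3 it was 7 (0 to 7 in all). Cfb was not called in any fit without 1 library, so those 3 were not the same 3 genes. Each of these fits has 2 mice in 1 group. With edgeR and TMM, 1 C1q chain had an unadjusted p below 0.05 and 0 were called; 3 were called with library totals alone and with each of the 4 fits of limma on unscaled FPKM, 1 with DESeq2, and 0 in every fit without 1 library. The 928 genes called of all tested became 3017 with library totals alone, 2475 with DESeq2, and 3250, 3271 and 3236 with limma on FPKM at the 3 pseudocounts, and ranged from 28 to 790 without 1 library. Library totals alone made 293 of the calls higher and 2724 lower, against 469 and 459.

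The call of Masp2 was lost in 4 of 19 alternatives, that of Cfb in 8 and that of F5 in 7. For Masp2 these were fits without 1 library (adjusted p from 0.0506 to 0.0934). Cfb lost its call in all 6 such fits (adjusted p from 0.057 to 0.148), with non-robust moderation and with limma without a filter. With the replicate block F5 stood at an adjusted p of 0.0501, while F13b, F11 and Proc joined Masp2 and Cfb. Same-numbered mice share only a number as far as the labels say, and the correlations of their deviations were 0.0197, 0.173 and 0.0797. Among the members, depth limits only Cfd.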

Other observations

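Among transcription factors of plasma protein genes, Hnf4a, a nuclear receptor required for hepatocyte identity, rose 1.898-fold, with means of 349 ± 34.7 CPM for WT and 662 ± 117 CPM for Cys52Ser (SD over 3 mice, edgeR adjusted p = 0.0355). On library totals alone Hnf4a was still called (log2 fold change 0.57, edgeR adjusted p = 0.036).

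Clusterin (Clu), a regulator of the terminal complement complex, had means of 2498 ± 193 CPM for WT and 1936 ± 231 CPM for Cys52Ser (SD over 3 mice), a log2 fold change of -0.37 that did not pass (edgeR adjusted p = 0.238). With library totals alone it was -0.73 and passed (edgeR adjusted p = 0.0206). Clusterin was named after its values were seen.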
